A study of Homo sapiens with 8 samples.

Results

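Polycomb proteins are chromatin regulators that keep developmental genes repressed, and the 36 genes described here encode subunits of their complexes. The list was taken as given, by gene symbol, and all 36 symbols were found among the 19617 protein-coding genes of the annotation. Of these genes, 12 encode Polycomb repressive complex 2 (PRC2), 22 encode Polycomb repressive complex 1 (PRC1) and 2 encode the Polycomb deubiquitinase (PR-DUB). Open chromatin was measured by ATAC-seq, in which a transposase cuts accessible DNA, in HEK293T, a human embryonic kidney line with the SV40 large T antigen. The labels give 4 libraries from cells with an H2A lentivector and 4 from cells with an H2A(E92K) lentivector, called H2A and E92K below, with no further treatment in either group. The E92K change puts a positively charged lysine where H2A has a glutamate, within the acidic patch on the face of the nucleosome. The labels do not say what drives the vectors, how much of the cells' H2A came from them, whether each line was a single clone, or whether libraries of a group came from separate cultures, so the spread behind each p-value may be technical.

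PRC2 methylates a lysine in the tail of histone H3, with EZH1 or EZH2 as the catalytic subunit on a scaffold of EED, SUZ12 and RBBP4 or RBBP7. PRC1 attaches ubiquitin to histone H2A through RING1 or RNF2 paired with a PCGF protein, and RNF2 touches the acidic patch when it does so. Canonical PRC1 adds CBX and PHC subunits, variant PRC1 adds RYBP or YAF2, and PR-DUB, with BAP1 as its enzyme and ASXL1 as its cofactor, removes the H2A ubiquitin.

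The peak lists held 55527 to 62044 peaks per library, with a median width of 570 to 602 bp. The genome-wide background behind the deposited p-values, used as a relative depth, was 2.522 to 2.929 fragments per position for H2A and 2.234 to 2.677 for E92K. As a check of the label, the promoters of all 7 genes listed as HEK293T markers (PAX2, SIX2, WT1, SALL1, VIM, NEFL and TUBB3) carried a peak in every library. Among 6 markers of blood, endothelium and liver, PTPRC had a promoter peak in 1 E92K library, and CD3E, PECAM1, CDH5, ALB and APOA2 had none in any library.

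Almost all Polycomb genes had accessible promoters in both groups. Promoters reached 1000 bp to each side of the start sites (TSS) of a gene's basic protein-coding transcripts in GENCODE, and counted as accessible in a library where a peak touched them. A promoter peak was present in all 8 libraries at 34 of the 36 genes, against 68.0% of all 19617 protein-coding genes. The count was 12 of 12 for PRC2, 20 of 22 for PRC1 and 2 of 2 for PR-DUB. The exceptions were PCGF2 and CBX2, both PRC1 genes on chromosome 17. With the start sites of all annotated transcripts, a choice made after seeing the data, the number was also 34. The strongest promoter peak then changed at 1 member, BCOR, in 3 of 8 libraries.

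PCGF2, also known as MEL18 and the closest relative of BMI1, had no promoter peak in any library, a state shared by 25.6% of protein-coding genes. Its span on the minus strand (chr17:38733898-38749817, hg38) held no peak at all, although its 6 annotated start sites widened the stretch searched. Peaks of all 8 libraries flanked it. The nearest one, at the start site of PSMB3, a proteasome subunit gene, had a fold over background of 7.7 to 9.06 and began 2011 to 2048 bp from the nearest PCGF2 start site. Beyond the other end of the gene, a peak near CISD3 had a fold of 3.61 to 6.7. BMI1 had a promoter peak in every library. A promoter without a peak had no signal past the authors' threshold at this depth, and may still be open in some cells.

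CBX2, a chromodomain reader of the PRC2 mark, had a promoter peak in 4 of 4 H2A and 3 of 4 E92K libraries. Its strongest promoter peak had a fold of 3.43, 4.25, 3.45 and 3.41 in H2A replicates 1 to 4 and 3.33, 3.42 and 3.0 in E92K replicates 1 to 3, so the groups overlapped. In E92K replicate 4 the single peak (chr17:79779235-79779480, fold 2.95) began 1041 bp from the nearest CBX2 start site, just outside the promoter. With promoters of 2000 bp to each side, 35 of the 36 genes had a peak in every library, and the exception was PCGF2. The signal at CBX2 was weak and split between an upstream and a downstream peak, and its strongest summit lay between −975 bp (H2A replicate 3) and 1236 bp (H2A replicate 1) from the nearest start site. In the libraries with a promoter peak, the strongest one was 1337, 1277, 675 and 1083 bp wide in the H2A group and 536, 616 and 559 bp in the E92K group. The H2A widths lay above the E92K widths, but the peak that was strongest changed from library to library. CBX2 therefore entered no fit that needed a promoter peak in all 8 libraries.

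**Figure D1:**
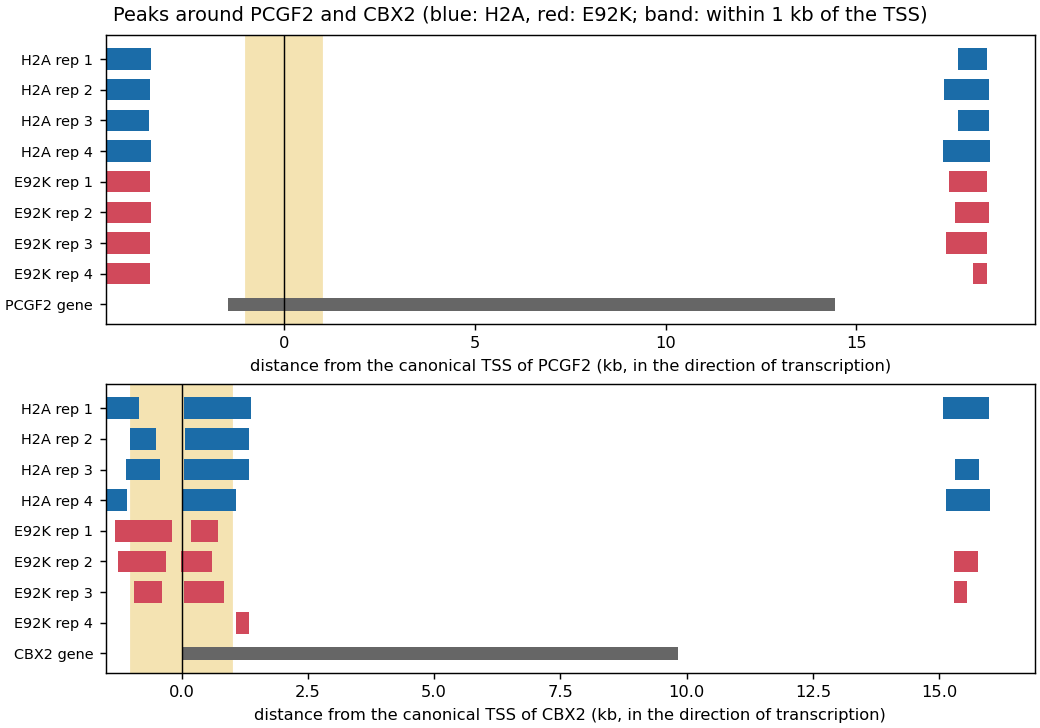
Peaks of each library (blue bars, H2A; red bars, E92K) around PCGF2 and CBX2, by distance in kb from the canonical start site in the direction of transcription. The band marks 1000 bp to each side of that site only, and grey bars are the gene spans. PCGF2 lies between peaks shared by all 8 libraries, and E92K replicate 4 has 1 narrow peak at CBX2, just outside the band.

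The members' promoters were rich in GC and CpG in the window from 250 bases before to 50 after the canonical start site, which was read at 19614 genes. Their median GC content was 72.66%, against 63.67% for all promoters and 66.67% for promoters accessible in all 8 libraries. The median ratio of observed to expected CpGs was 0.97, against 0.78 and 0.86, and 28 of the 36 genes lay above the all-promoter median. PRC1 and PRC2 members were alike in GC content, with medians of 72.66% and 72.34%.

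Short motifs were searched on both strands of the same 300-base windows, and a match is a description of letters, not a binding site. The E2F words TTTCCCGC, TTTCGCGC, TTTGCCGC and TTTGGCGC, named after the cell-cycle transcription factors, matched in 5 of 12 PRC2 promoters and in 0 of 22 PRC1 promoters. They matched in 4.37% of all promoters and 5.47% of the accessible ones. The 5 sites are shown with flanking bases because matches were found at PRC2 and not at PRC1 genes, a set chosen after the counts were seen, on the coding strand with the E2F word or its reverse complement in capitals.
EZH1, chr17:42745137-42745166, minus strand: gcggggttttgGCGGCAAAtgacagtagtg
EZH2, chr7:148884272-148884301, minus strand: gggctgccgcgTTTGGCGCtcggtccggtc
SUZ12, chr17:31936807-31936836, plus strand: cgacccctaatTTTCCCGCgaattcagttc
MTF2, chr1:93079277-93079306, plus strand: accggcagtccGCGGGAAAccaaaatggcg
PHF19, chr9:120877322-120877351, minus strand: gtcaataattcGCGGGAAAacgcgaaaaag
These genes include both catalytic subunits and SUZ12, the scaffold, together with MTF2 and PHF19, a pair of the Polycomb-like proteins that tether PRC2 to CpG-rich DNA. At PHF19 the promoter peak ranked below lies at another of its start sites, not at this one.

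CCAAT, the word bound by NF-Y, matched in 8 of 12 PRC2 and 7 of 22 PRC1 promoters, against 36% of all promoters and 36.5% of the accessible ones. L3MBTL2 and EZH2 each held 4 copies. Part of each is shown because they rank high within their complexes, with CCAAT or ATTGG in capitals.
L3MBTL2, chr22:41205062-41205281, plus strand: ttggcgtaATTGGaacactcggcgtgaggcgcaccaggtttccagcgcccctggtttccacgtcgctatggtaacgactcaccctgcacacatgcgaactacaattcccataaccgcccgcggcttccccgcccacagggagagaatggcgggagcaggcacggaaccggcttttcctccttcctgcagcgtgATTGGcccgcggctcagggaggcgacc
EZH2, chr7:148884322-148884541, minus strand: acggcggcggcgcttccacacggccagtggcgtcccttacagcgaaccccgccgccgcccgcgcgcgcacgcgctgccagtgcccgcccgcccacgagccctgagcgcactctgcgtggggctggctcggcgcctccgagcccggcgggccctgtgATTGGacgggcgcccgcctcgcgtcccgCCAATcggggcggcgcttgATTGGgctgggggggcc
Of the 4 copies, 2 fall in the L3MBTL2 stretch and 3 in the EZH2 stretch. The summit of the L3MBTL2 peak lay at −87 to −76 bp from the nearest start site in all 8 libraries, and so inside the stretch shown. The E-box CACGTG, read by MYC, MAX and MGA, matched in 9 of 36 members, 7 of them PRC1 genes, against 8.74% of all promoters and 9.99% of the accessible ones. The SP1 word GGGCGG matched in 30 members, or 83.3%, against 75% of accessible promoters. The remaining words matched in fewer members. ETS (CCGGAAG) matched in 4 (11.1%, against 18.8% of accessible promoters) and YY1 (AAGATGGC) in 3 (8.33%, against 5.44%). CRE (TGACGTCA) and NRF1 matched in 1 each (2.78%, against 3.48% and 2.32%) and ZBTB33 in none (against 0.892%).

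Strength was described by a promoter rank. This is the percentile, from 0 (weakest) to 100 (strongest), of a gene's strongest promoter peak by the authors' −log10 p within its own list, among the 13345 genes with a promoter peak in all 8 libraries. All 34 members with such peaks were ranked. They spread over nearly the whole scale, from a mean of 4.1 for RING1 to 95.8 for RBBP4, and their median of 49.45 was close to the 50.14 of all ranked genes. Single neighbours in the order could seldom be told apart, since 29 of the 33 neighbouring pairs swapped in at least 1 library. The 4 pairs that kept their order throughout were RBBP4 above L3MBTL2, BCORL1 above PCGF1, AEBP2 above PHC1 and SCMH1 above RING1.

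**Figure D2:**
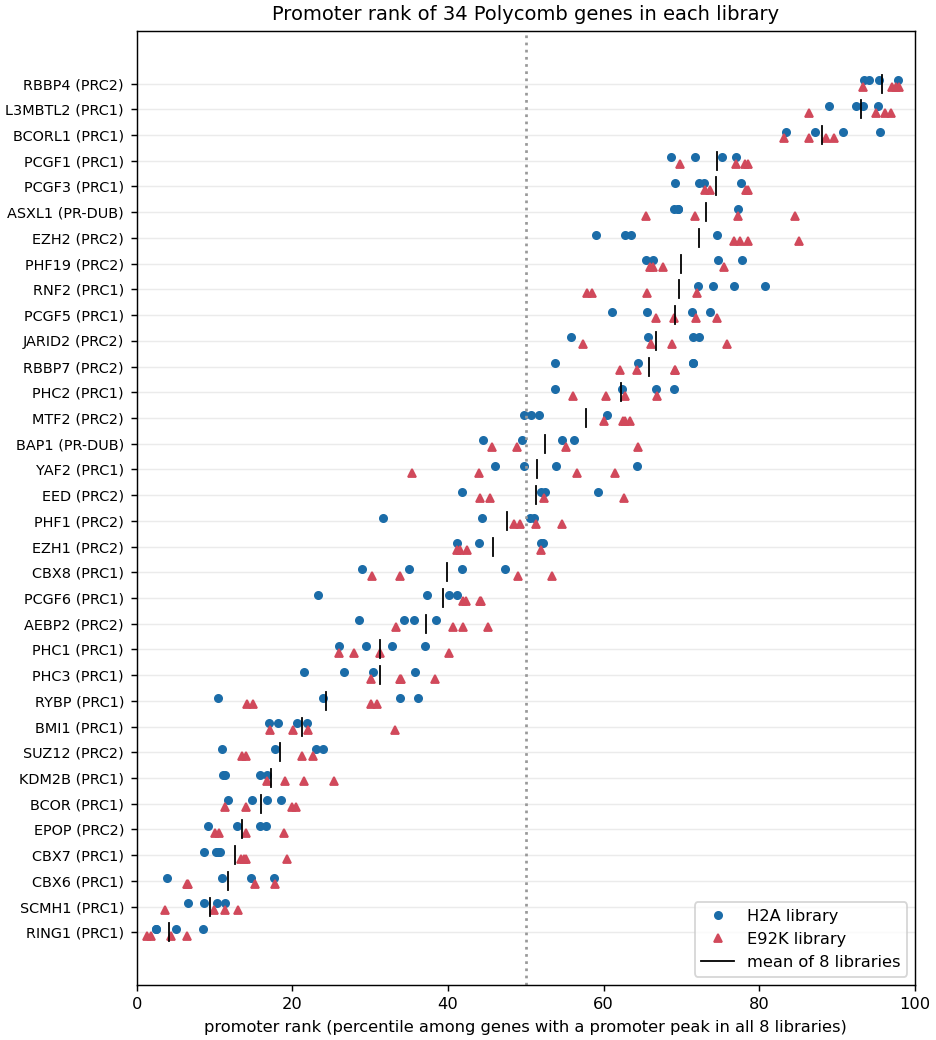
Promoter rank (percentile among genes with a promoter peak in all 8 libraries) of the 34 ranked Polycomb genes, 1 point per library (blue circles, H2A; red triangles, E92K) and a black tick at the mean of 8 libraries. RBBP4 and L3MBTL2 lie above 86 in every library and RING1 below 9, and the dotted line marks 50.

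The core PRC2 genes ranked from 18.4 (SUZ12) to 95.8 (RBBP4) in the mean. RBBP4, a histone chaperone that several other chromatin complexes also contain, ranked at 97.8, 95.4, 93.4 and 94.1 in H2A replicates 1 to 4 and at 93.3, 97.1, 97.6 and 98.0 in the E92K replicates, in the same order of replicates as used below. RBBP7, its paralogue, ranked at 64.4, 71.5, 53.8 and 71.5 and at 69.2, 69.2, 64.3 and 62.1. RBBP4 was higher in 8 of 8 libraries, by 30.1 ± 6.3 (SD over 8 libraries). Its promoter is shared, since the start site of ZBTB8OS lies 577 bp away, and a peak there cannot be given to a single gene.

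The catalytic subunits differed as well. EZH2, which dominates in dividing cells, ranked at 62.7, 59.0, 63.5 and 74.5 in the H2A libraries and at 78.5, 76.8, 85.1 and 77.5 in the E92K libraries. EZH1, the form typical of resting cells, ranked at 44, 51.9, 52.2 and 41.1 and at 41.6, 52.0, 41.1 and 42.4. EZH2 was above EZH1 in 8 of 8 libraries, by 26.4 ± 13.1. By fold the order was the opposite, with 6.58 to 8.52 at EZH2 and 9.58 to 10.93 at EZH1, and the EZH2 peak had more fragments at its summit (186 to 271, against 91 to 127) over a higher local background (24.4 to 34.5, against 8.3 to 10.9).

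EED, which binds the methylated tail, was mid-range, at 52.0, 41.8, 59.3 and 52.5 and at 62.6, 45.4, 44.1 and 52.3. SUZ12 was low throughout, at 17.8, 23.9, 11 and 23 and at 21.2, 22.7, 13.5 and 14.0. Its fold of 7.31 to 10.21 was nevertheless close to the all-gene median of 8.44, and 40 to 66 fragments stood over a local background of only 4.1 to 5.6. The −log10 p grows with the number of fragments at a given fold, so rank and fold describe different sides of a peak.

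Accessory PRC2 genes ranked from 13.5 (EPOP) to 69.9 (PHF19). PHF19 ranked at 66.3, 74.7, 77.8 and 65.4 and at 75.5, 67.6, 65.9 and 66.3. MTF2 ranked at 51.7, 49.8, 60.4 and 50.7 and at 63.4, 62.8, 62.5 and 60.0. PHF1, the third Polycomb-like gene, ranked at 31.6, 51.0, 44.4 and 50.5 and at 48.5, 51.3, 49.2 and 54.6. PHF19 was above both relatives in 8 of 8 libraries, by 12.3 ± 7.2 over MTF2 and 22.3 ± 8.7 over PHF1, and MTF2 was above PHF1 in 7 of 8.

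JARID2, which helps bring PRC2 to its targets, ranked at 72.3, 55.8, 71.5 and 65.7 and at 66.1, 68.8, 75.8 and 57.4. AEBP2, a zinc finger cofactor, ranked at 28.5, 34.3, 38.4 and 35.6 and at 45.1, 41.9, 33.3 and 40.7. EPOP, an elongin-binding subunit, was the lowest PRC2 gene, at 16.6, 12.9, 15.9 and 9.1 and at 10.6, 14.0, 18.9 and 10.1. The groups overlapped at all of these accessory genes.

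In PRC1 the E3 ligases stood at opposite ends. RNF2 (RING1B) ranked at 72.1, 76.7, 74.1 and 80.7 in the H2A libraries and at 72.0, 58.5, 65.6 and 57.9 in the E92K libraries. RING1 (RING1A) was the lowest of all ranked members, at 2.5, 2.5, 8.5 and 5.1 and at 1.3, 1.9, 4.4 and 6.5. RNF2 was above RING1 in 8 of 8 libraries, by 65.6 ± 8.6, with folds of 7.93 to 9.66 against 2.63 to 3.77.

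Of the PCGF genes, whose products define the PRC1 subtypes, PCGF1, PCGF3 and PCGF5 were in the upper part of the scale. PCGF1, of the PRC1.1 form, ranked at 68.7, 75.2, 71.7 and 77.0 and at 69.8, 78.2, 77.0 and 78.6. PCGF3 and PCGF5 act in similar variant complexes. PCGF3 ranked at 72.9, 77.7, 69.1 and 72.3 and at 73.6, 78.3, 73.0 and 78.5. PCGF5 ranked at 61.1, 73.6, 65.6 and 71.3 and at 74.6, 71.9, 69.0 and 66.7, so the groups overlapped at PCGF1, PCGF3 and PCGF5. PCGF6, of the germline gene repressor PRC1.6, ranked at 40.1, 23.3, 37.3 and 41.1 and at 42.3, 41.9, 44.3 and 44.1. BMI1 (PCGF4), of canonical PRC1, ranked at 18.1, 21.9, 20.6 and 17.0 and at 22, 17.1, 20.1 and 33.2. Each of PCGF1, PCGF3, PCGF5 and PCGF6 was above BMI1 in 8 of 8 libraries, by 53.3 ± 5.7, 53.2 ± 4.9, 48.0 ± 7.2 and 18.0 ± 8.2 in that order. The promoters of the genes for both canonical forms were thus the weakest of the 6, with PCGF2 at no peak and BMI1 at a fold of 3.80 to 5.15. The BMI1 summit was not poor in fragments, with 104 to 132, but the local background was 23.6 to 32.4.

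The CBX genes were low apart from CBX8. CBX8 ranked at 47.3, 41.8, 35 and 28.9 and at 30.2, 49, 33.8 and 53.3. CBX7 ranked at 10.7, 10.2, 10.4 and 8.7 and at 13.8, 14.0, 13.4 and 19.3. CBX6 ranked at 3.9, 17.6, 14.7 and 11 and at 17.8, 15.2, 6.6 and 6.5. CBX8 was above CBX7 and CBX6 in 8 of 8 libraries, by 27.4 ± 7.9 and 28.2 ± 12.2, while CBX7 exceeded CBX6 in 3 of 8. On the scale of all peaks in a list, CBX8 was also above CBX2 in the 7 libraries with a CBX2 promoter peak, by 53.7 ± 6.6 percentile points. By fold CBX8 did not stand above CBX7, with 5.07 to 6.72 (mean 5.66) against 5.33 to 6.95 (mean 5.98). The local background was 22.7 to 30.0 at CBX8 and 7.0 to 9.3 at CBX7.

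Among the PHC genes, whose SAM domains let PRC1 polymerise, PHC2 ranked at 66.7, 62.4, 53.8 and 69.0 and at 62.8, 60.3, 56.0 and 66.8. PHC1 ranked at 26.0, 29.4, 37.0 and 32.8 and at 40.1, 27.9, 26.0 and 31.2. PHC3 ranked at 26.6, 35.8, 21.5 and 30.3 and at 33.8, 30.1, 34 and 38.3. PHC2 was above each relative in 8 of 8 libraries, by 30.9 ± 7.7 over PHC1 and 30.9 ± 6.0 over PHC3, and the lower pair could not be ordered. SCMH1, another SAM domain protein, was near the bottom at 10.3, 6.6, 8.7 and 11.3 and at 3.6, 11.4, 13 and 9.9.

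The variant PRC1 genes were spread widely. L3MBTL2, of PRC1.6, ranked at 95.2, 92.4, 93.3 and 89.0 and at 86.4, 96.9, 96.2 and 95.0, with a fold of 13.33 to 15.56, the highest mean fold among the members. BCORL1 ranked at 83.4, 90.8, 87.2 and 95.5 and at 86.4, 88.5, 83.2 and 89.6. BCOR, its relative in PRC1.1, ranked at 16.8, 11.7, 14.8 and 18.5 and at 11.4, 14.1, 19.9 and 20.5. BCORL1 was above BCOR in 8 of 8 libraries, by 72.1 ± 5.4, the widest gap between paralogues compared. The strongest BCOR peak depended on the start sites used in 3 libraries, and its rank with the start sites of all transcripts was not computed. BCOR had 107 to 155 fragments at its summit, over a local background of 34.1 to 42.7, and a fold of 3.03 to 3.57.

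KDM2B, which binds unmethylated CpGs and brings PRC1.1 to them, ranked at 11.4, 11.1, 15.9 and 16.7 and at 16.8, 19.0, 25.4 and 21.5. YAF2 ranked at 46.0, 64.3, 49.7 and 53.9 and at 56.6, 61.4, 44 and 35.4. RYBP ranked at 10.4, 23.9, 33.8 and 36.2 and at 30.9, 30.1, 14.2 and 14.9. YAF2 was above RYBP in 8 of 8 libraries, by 27.1 ± 8.7, and shares its promoter with PPHLN1, whose start site lies 98 bp away.

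In PR-DUB, ASXL1 ranked at 69.0, 69.5, 69.5 and 77.3 and at 84.6, 77.2, 65.4 and 71.7. BAP1 ranked at 54.7, 56.2, 44.5 and 49.5 and at 55.2, 64.4, 45.7 and 48.9. ASXL1 was above BAP1 in 8 of 8 libraries, by 20.6 ± 6.6. The BAP1 peak was placed toward its neighbour PHF7, whose start site lies 652 bp away, with its summit at −636 to −622 bp from the nearest BAP1 start site. The JARID2 summit lay at −304 to −260 bp from its nearest start site.

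PRC1 genes had weaker promoter peaks than PRC2 genes in the middle of their distributions, with wide overlap. Over the 20 ranked PRC1 genes the median rank was 35.31, and over the 12 PRC2 genes it was 54.46, a difference of −19.14 (SD of the difference over 8 libraries 2.78). The median of PRC1 was below that of PRC2 in every library, with differences from −26.08 to −17.13. In the H2A libraries the medians were 34.12 ± 1.48 for PRC1 and 52.87 ± 2.44 for PRC2 (mean ± SD, n = 4), and in the E92K libraries 35.93 ± 1.41 and 58.04 ± 3.38. Below the lower quartile of all ranked genes lay 8 of 20 PRC1 genes, namely RING1, SCMH1, CBX6, CBX7, BCOR, KDM2B, BMI1 and RYBP, and 2 of 12 PRC2 genes, EPOP and SUZ12. Above the upper quartile lay 3 of 20 PRC1 genes and 1 of 12 PRC2 genes. The genes are not replicates and were chosen with earlier results known, so the difference is a description and was not tested.

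The size of that difference depended on the measure. By fold the medians were 7.29 for PRC1 and 7.76 for PRC2, both under the 8.44 of all ranked genes, and the difference in each library ran from −0.95 to −0.29. Ranked by fold in place of −log10 p, the difference in rank was −6.04, and as a percentile among all peaks of a list it was −6.66. Without RBBP4 and RBBP7, which also serve other complexes, it was −14.14. Width did not order the complexes, with medians over gene means of 1272.88 bp for PRC1 and 1230.88 bp for PRC2 and differences within single libraries from −244.0 to 62.0 bp. Both were wider than the median of 1106.38 bp over all ranked genes.

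**Figure D3:**
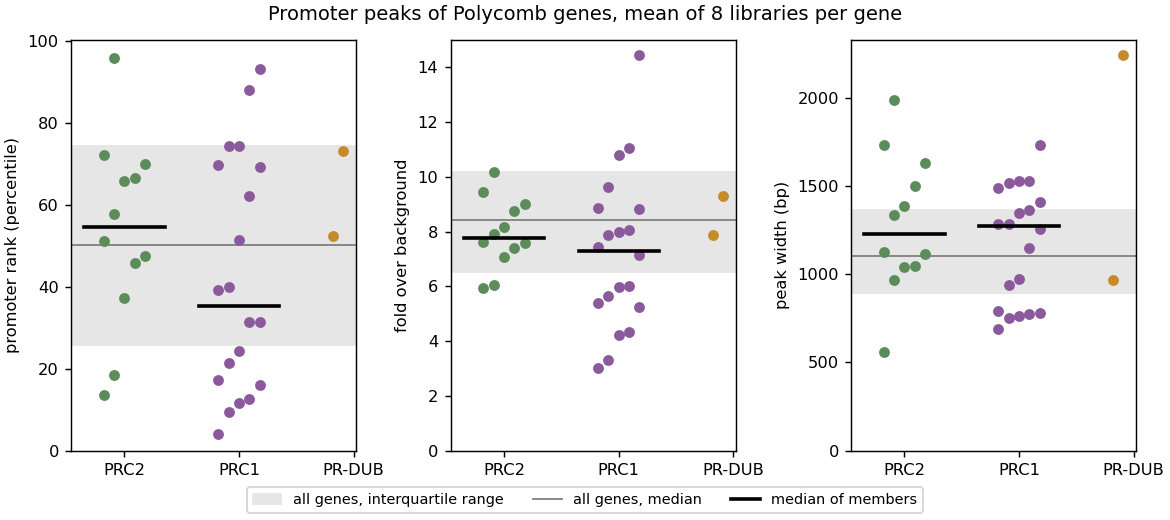
Mean over 8 libraries of promoter rank, fold over background and peak width for each ranked gene of PRC2, PRC1 and PR-DUB. The grey band and line are the interquartile range and median of 13345 genes, and black bars are the medians of PRC2 and PRC1; the PRC1 median rank of 35.31 lies under the PRC2 median of 54.46, while the widths overlap.

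The comparison of the H2A and E92K groups asked whether the acidic patch mutant went with altered accessibility at these genes. No Polycomb gene gained or lost its promoter peak in a whole group: at 0 of 36 did a peak appear in all 4 libraries of a group and in none of the other, against 6 of 19617 genes (0.0306%). With 4 against 4 libraries the smallest two-sided Fisher exact p is 0.0286, and the smallest after Benjamini-Hochberg adjustment was 1. In limma with Benjamini-Hochberg adjustment over 13345 genes, 0 of 34 members passed an adjusted p of 0.05 in rank, fold or width. Over all genes 0 passed in rank, 0 in fold and 4 in width (0.03%). At an unadjusted p under 0.05 stood 5 of 34 members in rank (background 7.58%), 4 in fold (7.31%) and 1 in width (5.16%).

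By direction, the E92K mean rank was above the H2A mean at 22 of 34 members and below it at 12, with a median difference of 1.08 percentile points. PRC1 genes split 13 to 7 and PRC2 genes 7 to 5. The same split over all ranked genes was not taken here, so no lean of these genes can be read from the counts. The largest differences were 14.56 at EZH2 and −12.42 at RNF2, an enzyme of each complex, in opposite directions.

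The 4 libraries of one group did not overlap the 4 of the other in rank at 5 of 34 members, against 3.93% of all genes. E92K was above H2A at 4 of them (background 1.87%) and below it at 1 (background 2.05%). At EZH2 the E92K ranks of 76.8 to 85.1 lay above the H2A ranks of 59.0 to 74.5, a difference of 14.56 (SE 3.55, adjusted p = 0.451, limma). At RNF2 the E92K ranks of 57.9 to 72.0 lay below the H2A ranks of 72.1 to 80.7 (nearest values 72.0 and 72.1), with a difference of −12.42 (SE 3.53, adjusted p = 0.475, limma). Neither passed the adjusted threshold.

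KDM2B, CBX7 and PCGF6 had all E92K ranks above all H2A ranks, at KDM2B with nearest values of 16.8 and 16.7. The differences were 6.93 (SE 2.49, adjusted p = 0.578, limma) at KDM2B, 5.10 (SE 1.95, adjusted p = 0.612) at CBX7 and 7.71 (SE 3.81, adjusted p = 0.697) at PCGF6. The PCGF6 difference was 3.65 without H2A replicate 2, whose rank of 23.3 was far below the others. The mean ranks of KDM2B and CBX7 lay below the lower quartile of promoters in both groups. MTF2 had a difference of 8.99 (SE 2.63, adjusted p = 0.483, limma), but its groups met, with 60.4 in H2A replicate 3 and 60.0 in E92K replicate 4. The relative depth reached lower values in the E92K group, and with it as a covariate the differences were 16.68 at EZH2 and −12.02 at RNF2, with adjusted p-values of 0.771 and 0.79 (limma). In the same fit they were smaller at KDM2B (5.94), CBX7 (3.85) and MTF2 (8.18) and larger at PCGF6 (10.56), with adjusted p-values of 0.797 to 0.887 (limma).

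**Figure D4:**
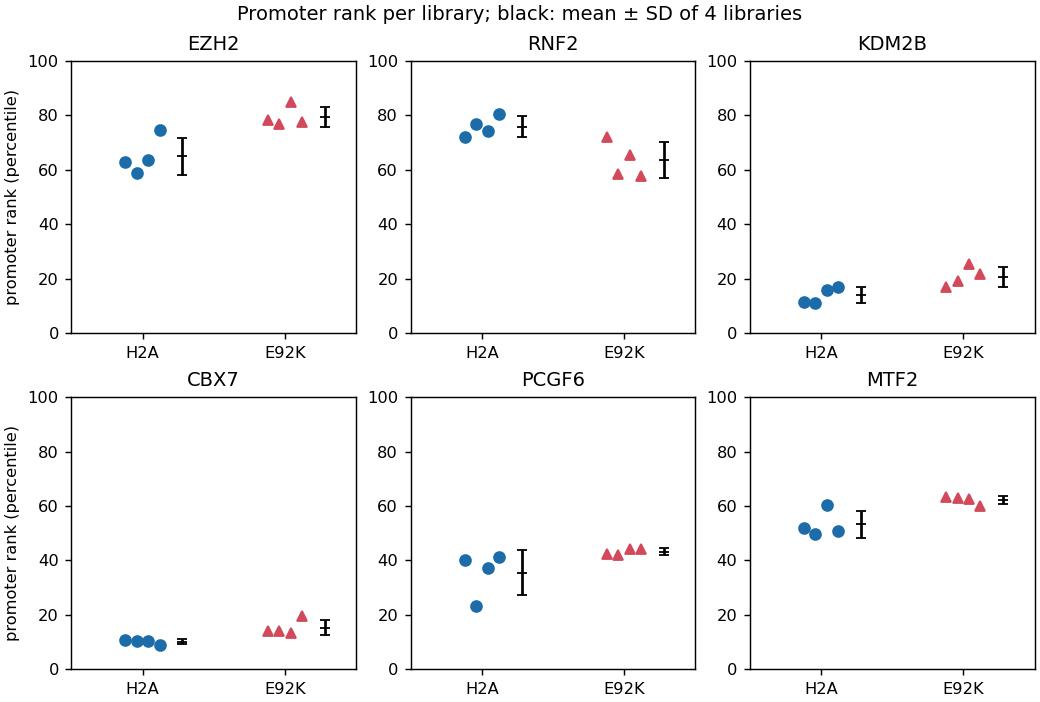
Promoter rank (percentile) of EZH2, RNF2, KDM2B, CBX7, PCGF6 and MTF2 in each H2A (blue circles) and E92K (red triangles) library, with the mean ± SD of 4 libraries in black. All E92K points lie above all H2A points at EZH2, KDM2B, CBX7 and PCGF6 and below them at RNF2, and the MTF2 groups meet at about 60; none passes an adjusted p of 0.05.

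In fold, with each library centred on its median promoter, 3 of 34 members did not overlap, against 4.32% of all genes. They were KDM2B, with a log2 difference of 0.22 (SE 0.08), CBX7, with 0.19 (SE 0.06), and RNF2, with −0.15 (SE 0.06). As deposited, the CBX7 folds were 5.42, 5.33, 5.97 and 5.48 for H2A and 6.39, 6.22, 6.05 and 6.95 for E92K. The KDM2B folds were 4.37, 4.48, 5.43 and 5.55 for H2A and 5.54, 5.49, 6.05 and 6.1 for E92K, and those of RNF2 were 8.86, 9.09, 9.37 and 9.66 and 9.01, 7.93, 8.72 and 8.09. At KDM2B and RNF2 the deposited folds overlapped, and the groups separated only after centring. The adjusted p-values of the 3 genes lay between 0.567 and 0.655 (limma). In width, MTF2 and BMI1 did not overlap, against 3.09% of all genes, with log2 differences of 0.12 (SE 0.05) and 0.07 (SE 0.04) after the same centring. The MTF2 peak was 1981, 1881, 1827 and 2026 bp wide for H2A and 2062, 2046, 2048 and 2048 bp for E92K, the latter nearly identical to each other. The BMI1 peak was 686, 642, 696 and 704 bp wide for H2A and 710, 715, 681 and 698 bp for E92K, so its widths overlapped before centring. Adjusted p-values were 0.955 and 0.956.

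Over their spans, without added flanks, the 36 genes overlapped 172 merged regions. A promoter peak lying wholly upstream of a span was not counted. This left out the ranked promoter peak of JARID2 and the upstream peak of CBX2. Of these, 71 (41.3%) carried a peak in all 8 libraries, against 43.4% of the 55758 regions over protein-coding genes. A further 51 were seen in 1 library. JARID2 held the most, with 30 regions over 276.0 kb, followed by AEBP2 with 15, BCOR with 14, KDM2B with 12 and EZH2 with 10. The spans of 10 members, among them SUZ12, RNF2, RING1, L3MBTL2 and EPOP, held a single region.

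Regions shared by all 8 libraries and lying outside the promoter as defined here numbered 31, in 14 members, 10 of PRC1 and 4 of PRC2. JARID2 had 8 of them, the widest at chr6:15363760-15365801. KDM2B had 6, spread over its 151.9 kb, including chr12:121466994-121468078. BCOR had 4, the widest at chrX:40105409-40109566, a block of 4158 bp. EZH2 and PHC2 had 2 each, and EED, AEBP2, BMI1, PCGF3, CBX6, CBX7, CBX8, PHC3 and SCMH1 had 1 each. Of the 31 regions, 6 lay within 1000 bp of the start of another annotated transcript of the gene, 1 each at EZH2, BMI1, PCGF3, CBX8, PHC3 and BCOR, and 25 lay farther away. The CBX8 region (chr17:79800387-79801446) was 87 bp from such a start. The members with the lowest promoter ranks thus included genes with many internal regions (KDM2B and BCOR) and genes with none (RING1 and EPOP). The former pair spans 151.9 and 127.5 kb and the latter 4.2 and 3.3 kb, so the counts are not comparable per length.

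**Figure D5:**
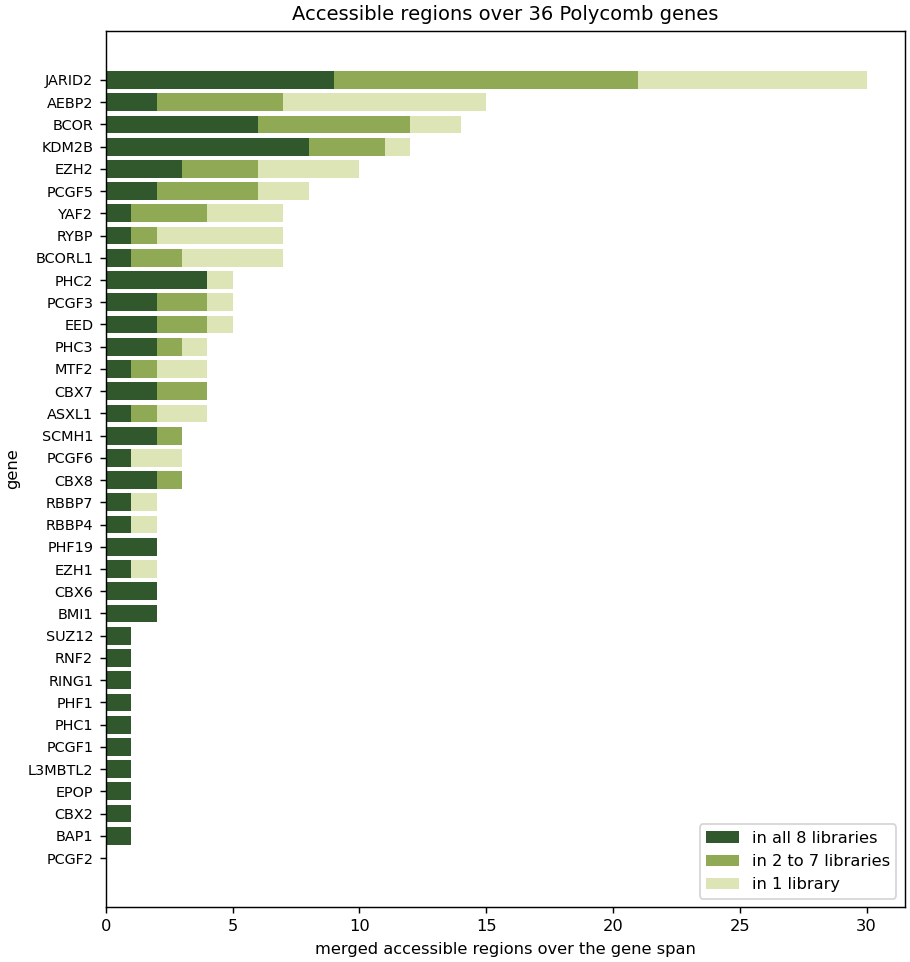
Number of merged accessible regions over each of the 36 gene spans, divided into regions with a peak in all 8 libraries, in 2 to 7 libraries and in 1 library. JARID2 has 30, and PCGF2 has none.

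No region over a Polycomb gene separated the groups fully, with 0 of 172 present throughout a group and absent from the other, against 0.274% of all regions over coding genes. Regions with a difference of 3 libraries were found at 3 members. The share of such regions over all coding genes was not taken here, so this count is only a description. At ASXL1 a region that reaches its promoter (chr20:32358934-32359444) had a peak in 4 of 4 E92K libraries and in H2A replicate 1. At PCGF3 a region inside the gene (chr4:743646-744712) had a peak in 4 of 4 H2A libraries and in E92K replicate 2. At BCOR a region (chrX:40148306-40149161) had a peak in H2A replicates 1, 3 and 4 and in no E92K library. When every list was shortened to the 55527 strongest peaks, the ASXL1 region lost its H2A peak and separated the groups.

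The length of a gene's span covered by peaks, with 1000 bp added at each end, told the groups apart at 0 of 35 members after adjustment (0 of 15204 genes, limma), and 1 member had an unadjusted p under 0.05 (background 7.4%). PCGF3 was the single member without overlap, against 4.28% of all genes. Its covered length was 2322, 2659, 2532 and 1990 bp for H2A and 1774, 1964, 1440 and 1748 bp for E92K. The log2 difference was −0.41 (SE 0.13, adjusted p = 0.529, limma), and −0.21 (adjusted p = 0.852, limma) with all lists shortened to the same length. The PCGF3 promoter itself differed by 2.88 in rank (SE 2.47). At CBX2 the covered length was 1490, 1767, 1861 and 1083 bp and 1345, 1317, 1363 and 246 bp, and the value of 246 bp is the lone peak of E92K replicate 4.

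A wider list held 37 Polycomb partners, such as the PRC1.6 factors MGA, MAX and E2F6 and the H2A deubiquitinases USP16 and MYSM1. It gave a similar picture in promoter presence and in the adjusted p-values. A promoter peak was present in all 8 libraries at 35 of 37. MBD6, which binds PR-DUB, had one in 4 H2A and 3 E92K libraries, and EZHIP, an inhibitor of EZH2, had none in any library. None separated the groups in presence and 0 of 35 passed an adjusted p of 0.05 in rank, fold or width (limma). The groups did not overlap at 1 of 35 partners in rank, 1 in fold, 2 in width and 3 of 36 in covered length. Among the members the numbers were 5, 3 and 2 of 34 and 1 of 35. Over all genes the shares were 3.93%, 4.32%, 3.09% and 4.28% in that order. LCORL, a PRC2 accessory gene, had its 4 E92K ranks and folds below its 4 H2A values. With E92K higher, the others were FBRS and L3MBTL1 in width and AUTS2, DCAF7 and FBRS in covered length. None of these passed the adjusted threshold.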

How the data were processed

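The study compared 4 H2A and 4 E92K libraries, grouped by sample title. Each has 1 deposited list in narrowPeak layout, called per library; reads were aligned to hg38, per the labels' design text, and no source used here names the aligner, the peak caller or a transposase shift. The material is labelled genomic DNA, although the extraction protocol mentions RNA. In the deposited lists the fold is a ratio of summit over local background, p-values and q-values are −log10 values with a smallest −log10 q of 2.0, and the score column, also from the authors, was not analysed. A peak's fold and significance are the authors' and were used only to describe and rank peaks within a list. No peak ended beyond an hg38 chromosome.

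A peak was a distinct interval, represented by its strongest summit. Promoters were set from the start sites of basic protein-coding transcripts in GENCODE 44, which also gave the spans, and sequences from hg38. Fragments at a summit n and local background b were recovered from the fold, (n + 1)/(b + 1), and the Poisson p, with a tolerance of 0.001 on the log scale. The lowest b in a list served as its depth, and total read numbers were not analysed here. Gene values came from Python 3.11.15 with pandas 2.3.3 and scipy 1.17.1. Rank, log2 fold, log2 width and log2 covered length were fitted with limma 3.58.1 (R 4.3.3) with group as the only term, and the adjusted p threshold was 0.05 over all genes tested. The scripts were tested on simulated data.

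The members and lists were chosen with earlier results of these data known, so nothing here is independent support. Values in each library were given for members lacking a promoter peak somewhere, the 3 highest and 3 lowest of PRC1 and PRC2, paralogues, and members whose groups did not overlap. Alternatives were promoters of 500 and 2000 bp, canonical start sites, summits inside the promoter, q of 1e-05 or less, lists of 55527 peaks, 50% of a region covered, other rank scales, no centring, a depth covariate, a replicate block and each library left out. Chosen after seeing the data were PRC2 without RBBP4 and RBBP7, the left-out libraries for PRC1 against PRC2, and the start sites of all transcripts. One marker gene of the planned list and one promoter sequence are not reported here.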

Additional observations from a re-analysis of the deposited data

Results flagged for a closer look

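In 15 of 206 groups of 4 values (7.28%), 1 library stood apart from the other 3 by Dixon's ratio at its 95% critical value, where chance flags about 1 in 20. In rank these were EZH1 in E92K replicate 2 (52.0, high), CBX7 in E92K replicate 4 (19.3, high) and ASXL1 in H2A replicate 4 (77.3, high). The flagged CBX7 rank was the highest of the E92K group, so leaving it out could not make the groups overlap. Without E92K replicate 4 the CBX7 rank difference went from 5.1 to 3.71. In fold they were RBBP7 (8.23) and PHF19 (9.63) in E92K replicate 1 and CBX2 (4.25) in H2A replicate 2, all high.

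In width, E92K replicate 1 was high at EZH2 (1890 bp), SUZ12 (1170 bp) and MTF2 (2062 bp) and low at BCORL1 (890 bp). E92K replicate 4 was low at RBBP7 (1504 bp) and PHC2 (975 bp). H2A replicate 3 was high at EED (1482 bp), H2A replicate 1 was low at RNF2 (1058 bp) and H2A replicate 2 was low at PCGF5 (809 bp). At MTF2 the other 3 E92K widths were 2046, 2048 and 2048 bp.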

How the results depend on the processing

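The 13 group differences recomputed at 8 genes (EZH2, RNF2, KDM2B, CBX7, PCGF6, MTF2, BMI1 and PCGF3) kept their direction and their side of the threshold in all 222 values under alternatives, and no alternative brought a member past an adjusted p of 0.05 (limma). The differences were picked from these same data, most of them because the groups did not overlap. Leaving out 1 library can then hardly reverse a direction, so the kept direction is no independent check. The EZH2 rank difference ran from 11.21 to 17.73 (adjusted p 0.409 to 0.771) and that of RNF2 from −15.24 to −10.51 (adjusted p 0.37 to 0.79), leaving aside percentiles among all peaks (3.28 and −3.04). In rank, deviations of same-numbered libraries correlated at −0.21, 0.08, −0.05 and −0.11, so no pairing by replicate number was seen. These values cannot show whether same-numbered libraries were prepared together. With the replicate block the genes called in width went from 4 to 0, and those in rank, fold and covered length were 0. With the depth covariate, 1 gene was called in width and 1 in fold; 2000 bp promoters gave 4 in fold, and a q of 1e-05 or less gave 1 in covered length. Leaving out 1 library gave 0 to 1 genes in fold, 3 to 7 in width and 0 to 3 in covered length, 9 to 20 genes (main 6) and 275 to 323 regions (main 153) separating the groups, since fewer libraries must then agree, and 0 to 1 member regions: ASXL1 without H2A replicate 1, BCOR without H2A replicate 2 and PCGF3 without E92K replicate 2. Lists of equal length gave 1 member region (ASXL1). The PRC1 minus PRC2 rank of −19.14 was −23.11 with 2000 bp promoters, −14.03 with canonical start sites, −14.14 without RBBP4 and RBBP7, −6.66 among all peaks, −6.04 by fold and −22.83 to −17.51 with 1 library left out; −22.83 is without E92K replicate 4, where CBX2 enters. The width difference of 42.0 bp reversed to −80.0 with 2000 bp promoters and −90.12 with canonical start sites, was 151.5 without RBBP4 and RBBP7, and 4.71 to 55.79 with 1 library left out. Apart from the counts named as following from fewer libraries, the cause was not tested. A weak peak can fall under the authors' threshold at these depths, and whether depth set the calls at CBX2 was not tested.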
